A study of Homo sapiens with 4 samples.

Results

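Transcripts of 10 genes of the S100 family were compared between the pancreatic adenocarcinoma cell line PANC-1 and PZT-2, a line derived from it in which the histone variant H2A.Z is knocked down. The genes were taken by symbol (S100A2, S100A3, S100A4, S100A6, S100A10, S100A11, S100A13, S100A14, S100A16 and S100P), and 9 of the 10 are among the 15220 genes to which transcripts could be assigned. All 9 passed the filter on low counts, and S100A14 was not analysed here. The 4 RNA-seq libraries were 2 of untransduced wild type PANC-1 and 2 of PZT-2, both lines at passage p12-p13 in DMEM with 10% FBS. PZT-2 is 1 clone that carries a lentiviral pLL3.7 vector with shRNAs under the U6 promoter against H2A.Z.1 (H2AFZ) and against both isoforms of H2A.Z.2 (H2AFV), selected with puromycin. A difference between the lines therefore also holds the vector, the selection and the choice of 1 clone, which cannot be told apart from the knockdown, and libraries of cells with a scrambled shRNA were not analysed here.

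S100 proteins are small calcium-binding proteins with EF-hand motifs that work mostly as dimers. Calcium opens a hydrophobic face on the dimer, which then binds targets such as annexins, myosins and other proteins of the cytoskeleton and membrane, and some S100 proteins are also released from cells and bind surface receptors such as RAGE. Most S100 genes lie in a cluster on the long arm of chromosome 1, S100P lies on chromosome 4, and several members are known to be abundant in pancreatic ductal adenocarcinoma.

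Estimated counts came to 12861486 in replicate 1 and 15717578 in replicate 2 of PANC-1, and to 13955522 and 14175665 in those of PZT-2. Values are given as normalized counts, that is, counts put on the scale of a library of mean effective size. Each log2 fold change, with its standard error (SE), sets PZT-2 against PANC-1 in the quasi-likelihood test of edgeR, and a gene was called at a Benjamini-Hochberg adjusted p under 0.05 over 15100 genes. The targeted H2AFZ was lower in PZT-2, with 6389 and 6034 in PANC-1 against 2212 and 2259 in PZT-2 (log2 fold change -1.47, SE 0.0565), and H2AFV fell by 0.36 on the log2 scale (3343 and 3452 against 2590 and 2719 normalized counts, SE 0.0569). Without PZT-2 replicate 1 H2AFV was no longer called, with an adjusted p of 0.0601. All 6 ductal epithelial markers were detected, of which KRT8, KRT18 and KRT19 were lower in PZT-2 (log2 fold changes from -1.17 to -0.73), SOX9 was higher (0.25, a call lost in 6 of 13 alternatives), and KRT7 and EPCAM were not called. Of 10 markers of acinar, endocrine, immune, endothelial and fibroblast cells, 7 were not analysed here, CD68 lay between 1578 and 1708 normalized counts, PECAM1 between 4.03 and 12.4, and COL1A1 fell from 494 and 531 to 170 and 135. The part of these marker changes in the S100 values was not tested. The study calls the replicates biological, and the labels do not say whether they were separate cultures, so the p-values measure the spread between these libraries. With 2 against 2 an exact permutation test of a single gene cannot go below p = 0.333.

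Of the 9 S100 genes, 4 were lower in PZT-2 (S100A4, S100A6, S100A10 and S100A13), 1 was higher (S100A16), and S100A2, S100A3, S100A11 and S100P did not pass the test. The 5 called genes are 55.6% of the 9, where 28.4% of all genes tested were called, 13.7% lower and 14.7% higher. The same 5 were the ones whose libraries did not overlap between the lines, which 66.3% of all genes tested did not. The median log2 fold change of the 9 genes was -0.11, and that of all genes tested was 0.00. In RNA from a whole culture, less RNA in each cell and fewer cells with the RNA cannot be told apart.

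**Figure D1:**
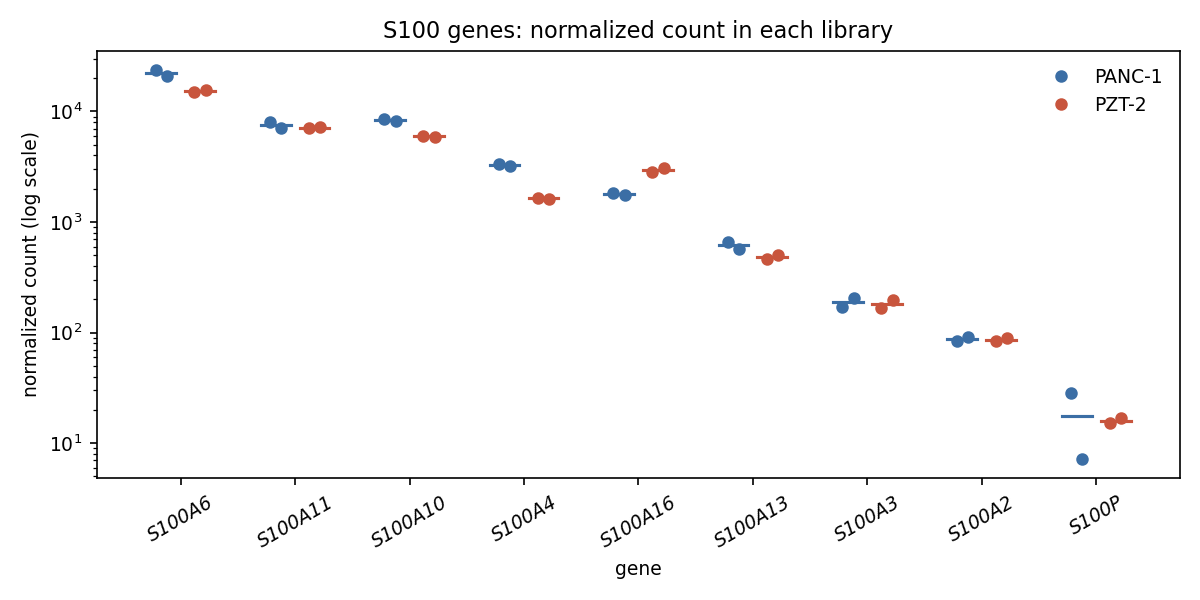
Normalized count of each of the 9 S100 genes (log axis) in each library, with PANC-1 in blue, PZT-2 in red, 1 point per library and a bar at the mean of the 2 libraries. The red points lie below the blue ones for S100A6, S100A10, S100A4 and S100A13 and above them for S100A16, and the points of the other 4 genes overlap.

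S100A4 was the member with the largest decrease. It encodes metastasin, which binds nonmuscle myosin IIA and is known for its link to cell motility and metastasis. Its normalized count was 3364 and 3181 in PANC-1 and 1654 and 1629.7 in PZT-2, so that the PZT-2 mean was 0.502 of the PANC-1 mean. The log2 fold change was -0.99 (SE 0.0590, adjusted p = 2.46e-04 in edgeR), far beyond the spread of either pair of libraries. It stayed between -1.04 and -0.96, and past the threshold, in each of 13 alternative analyses.

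S100A6 and S100A10 fell by less. S100A6, or calcyclin, is named for its growth-linked expression and binds the ubiquitin ligase adaptor CACYBP as well as annexins. It had 23620 and 20952 normalized counts in PANC-1 and 14973 and 15669 in PZT-2. The PANC-1 libraries differed by more than those of PZT-2, but both lay above them, and the log2 fold change was -0.54 (SE 0.0649, adjusted p = 0.00215 in edgeR). S100A10, or p11, has lost the ability to bind calcium, stays in the open form and joins annexin A2 in a stable complex that carries plasminogen and ion channels at the cell surface. It had 8533 and 8124 normalized counts in PANC-1 against 6004 and 5883 in PZT-2, and both pairs were tight (log2 fold change -0.49, SE 0.0504, adjusted p = 0.00132 in edgeR). In the 13 alternatives S100A6 stayed between -0.63 and -0.46 and S100A10 between -0.53 and -0.46, each past the threshold throughout.

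S100A13 takes part in the release of FGF1 and interleukin 1 alpha by a route that bypasses the Golgi. It had 664 and 573 normalized counts in PANC-1 and 459.98 and 505 in PZT-2 (log2 fold change -0.35, SE 0.102, adjusted p = 0.0435 in edgeR). Both PZT-2 libraries were below both PANC-1 libraries, but the gap between the nearest of them was smaller than that between the PANC-1 replicates. The call was lost in 7 of 13 alternatives, where the adjusted p of edgeR or DESeq2 lay between 0.0501 and 0.195, among them the analyses that left out PANC-1 replicate 1 (0.0962) or either replicate of PZT-2 (0.195 for replicate 1 and 0.0945 for replicate 2). In GENCODE 29, exons of S100A13 share 235 bases with S100A1 on the opposite strand, which is 10.6% of the exon bases of S100A13. A larger overlap, of 536 bases or 24.2%, is with AL162258.1 on the same strand, where strand cannot separate the reads. The strand setting of the authors' quantification is not given in the sources used here.

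S100A16 was the 1 member that rose. It is a widely expressed S100 protein with weak calcium binding. Its normalized count was 1833 and 1739 in PANC-1 and 2824 and 3104 in PZT-2, a PZT-2 mean 1.66 times that of PANC-1. Both pairs were far apart relative to their spread, with a log2 fold change of 0.73 (SE 0.0696, adjusted p = 0.00101 in edgeR) and a range of 0.66 to 0.80 over 13 alternatives, all past the threshold.

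The reference promoters of the 4 genes with a call that held in every alternative are shown, since these genes lie in 1 cluster, are transcribed from the same strand and moved in opposite directions. Each is 300 bases of the minus strand of GRCh38.p14 from RefSeq, written 5′ to 3′, from 250 bases before to 50 after the annotated start. Capitals mark exact matches on either strand, for a TATA box sought as TATAAA, a GC box sought as GGGCGG, the CCAAT box by those letters and an AP-1 site sought as TGANTCA. S100A4 lies at chr1:153545757-153546056, S100A6 at chr1:153535942-153536241, S100A10 at chr1:151993810-151994109, and S100A16 has a first window at chr1:153613088-153613387 and a second at chr1:153609306-153609605.
S100A4: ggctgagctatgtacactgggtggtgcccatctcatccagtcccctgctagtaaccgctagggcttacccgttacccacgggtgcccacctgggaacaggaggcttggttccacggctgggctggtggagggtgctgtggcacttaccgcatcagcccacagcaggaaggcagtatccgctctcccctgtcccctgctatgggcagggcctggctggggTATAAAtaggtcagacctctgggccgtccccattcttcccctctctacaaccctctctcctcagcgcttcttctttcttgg
S100A6: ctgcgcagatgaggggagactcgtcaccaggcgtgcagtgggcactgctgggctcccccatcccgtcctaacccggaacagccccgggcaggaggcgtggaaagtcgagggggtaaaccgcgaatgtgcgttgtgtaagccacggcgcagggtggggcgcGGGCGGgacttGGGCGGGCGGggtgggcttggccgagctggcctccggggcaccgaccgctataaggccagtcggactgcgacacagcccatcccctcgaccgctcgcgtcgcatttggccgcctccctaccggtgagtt
S100A10: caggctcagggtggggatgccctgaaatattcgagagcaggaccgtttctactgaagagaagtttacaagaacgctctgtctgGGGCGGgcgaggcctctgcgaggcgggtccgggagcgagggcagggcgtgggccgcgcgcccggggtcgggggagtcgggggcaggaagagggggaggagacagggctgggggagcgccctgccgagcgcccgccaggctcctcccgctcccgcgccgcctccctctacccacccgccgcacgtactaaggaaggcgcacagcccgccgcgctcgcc
S100A16 first window: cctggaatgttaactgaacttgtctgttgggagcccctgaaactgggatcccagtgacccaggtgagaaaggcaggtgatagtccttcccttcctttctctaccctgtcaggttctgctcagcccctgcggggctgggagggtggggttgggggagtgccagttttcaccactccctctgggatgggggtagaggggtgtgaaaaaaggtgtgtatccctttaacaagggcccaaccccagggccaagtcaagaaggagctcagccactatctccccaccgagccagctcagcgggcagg
S100A16 second window: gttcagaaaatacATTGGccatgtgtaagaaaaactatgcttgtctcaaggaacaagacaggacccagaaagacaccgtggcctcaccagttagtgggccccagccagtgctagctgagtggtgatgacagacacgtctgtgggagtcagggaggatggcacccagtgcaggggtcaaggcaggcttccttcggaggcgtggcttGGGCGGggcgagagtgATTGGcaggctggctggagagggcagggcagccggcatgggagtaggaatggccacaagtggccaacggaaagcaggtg

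The promoters of the 3 lowered genes were not alike in these letters. All positions are counted from the start on which a window is set. S100A4 had a TATA box 31 bases before that start and no GC box. S100A6 had no TATAAA and 3 GC boxes at 90, 79 and 75 bases before the start, of which the last 2 overlap, and S100A10 had 1 GC box at 167 bases. In GENCODE 29, transcript NM_002961 of S100A4 began at -79 bases from the window's start and NM_019554 at 4. NM_014624 of S100A6 began at -231 bases and NM_002966 of S100A10 at -531. The matches in the windows of these 3 genes therefore lie downstream of the GENCODE starts of NM_002961, NM_014624 and NM_002966. The windows of S100A6 and S100A10 were also rich in CpG dinucleotides, with 31 and 32 in 300 bases at a GC content of 69.3% and 71.7%, against a median of 14 and 58.7% over all 34943 promoters of the table, while that of S100A4 had 8 at 60.7%. The first window of S100A16 held no match and 3 CpG dinucleotides, and the second held a GC box at 45 bases and CCAAT boxes at 237 and 29 bases. Of all promoters, 11.6% held a TATA box, 44.9% a GC box, 34.6% a CCAAT box and 7.72% an AP-1 site. Of the members that were not called, S100A11 had a GC box 68 bases before its start, S100A2 an AP-1 site at 52 bases in 1 of its 2 windows, and S100P a TATA box. S100A3, also not called, held a GC box at 142 bases, an AP-1 site at 225 bases and CCAAT boxes at 80 bases before and 8 after its start. S100A13 held a GC box in 1 of its 3 windows and a TATA box and a CCAAT box in another. These matches describe the letters of the reference and are not measured sites. Binding of a factor or of H2A.Z at these promoters was not analysed here.

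S100A11, S100A3, S100A2 and S100P did not pass the test. S100A11, or calgizzarin, binds annexin A1 and is known in keratinocyte growth control. It had 7979 and 7143 normalized counts in PANC-1 and 7049.7 and 7246 in PZT-2, which did not differ beyond their spread (log2 fold change -0.08, SE 0.0644, adjusted p = 0.403 in edgeR). The value for PANC-1 replicate 1 stood above the other 3 libraries, and without PANC-1 replicate 2 the log2 fold change was -0.17 and passed the threshold (adjusted p = 0.0308, in a range from 0.0308 to 0.969 over 13 alternatives). The table of RefSeq genes lists 10 pseudogenes of S100A11, of which 0 has a transcript there.

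S100A3, a cysteine-rich member known from hair follicles, had 171 and 205 normalized counts in PANC-1 and 166 and 197 in PZT-2 (log2 fold change -0.06, SE 0.149). S100A2, an epithelial member that is found in the nucleus, had 83.3 and 92.2 against 83.5 and 89.0 (log2 fold change -0.03, SE 0.165). In both genes the spread between replicates was wider than the difference between the lines, and its sign changed when single libraries were left out. S100P, known for high expression in pancreatic cancer and for binding ezrin and IQGAP1, was close to the limit of detection, with 25 and 8 counts in PANC-1 and 15 and 17 in PZT-2. Its normalized counts of 28.1, 7.23, 15.1 and 16.8 gave a log2 fold change of -0.11 with an SE of 0.638, and values from -0.82 to 1.12 with single libraries left out, so no difference was detectable at this depth.

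**Figure D2:**
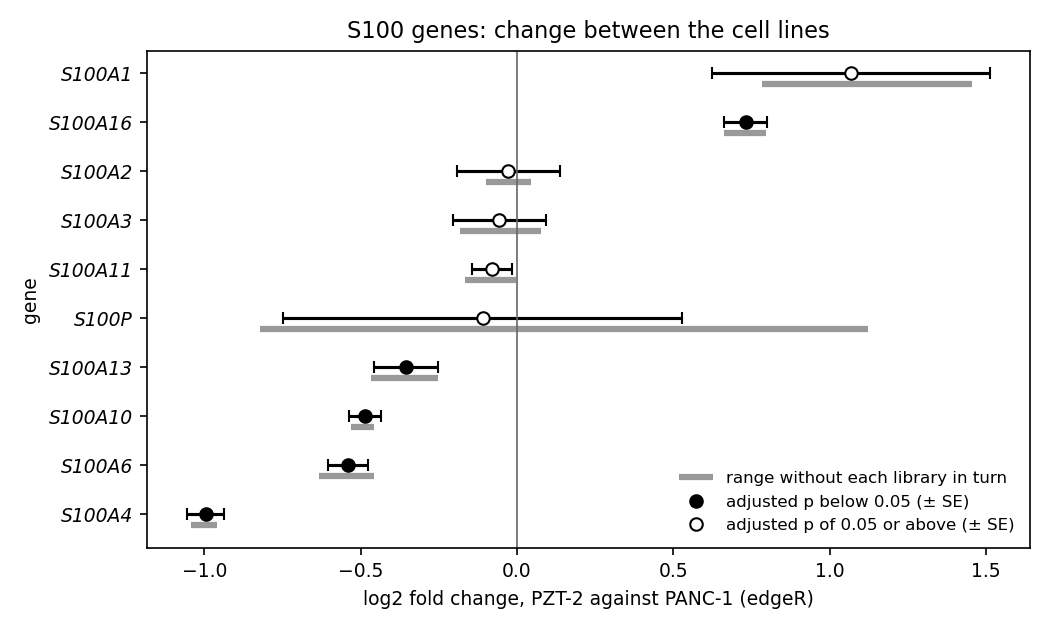
Log2 fold change of PZT-2 against PANC-1 for the 9 S100 genes and S100A1, with bars of 1 standard error from edgeR, filled points for an adjusted p under 0.05, and grey bars for the range when single libraries are left out. The grey bars of the 5 called genes stay on 1 side of 0, as do those of S100A11 and S100A1, which were not called, and that of S100P runs from -0.82 to 1.12.

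Levels between genes were compared per length, in TPM, the abundance of transcripts per length and library as deposited. In PANC-1 the order was S100A6 at 5208 ± 384 TPM (SD, n = 2), S100A11 at 2120.4 ± 139, S100A10 at 1124 ± 30.9, S100A4 at 1114 ± 27.3, S100A16 at 202 ± 5.99, S100A13 at 149 ± 14.3, S100A3 at 39.8 ± 5.49, S100A2 at 13.3 ± 1.06 and S100P at 6.11 ± 5.05. In PZT-2 the order was the same. S100A6 stood at 3569 ± 117 TPM (SD, n = 2), S100A11 at 2001.3 ± 41.0, S100A10 at 797.3 ± 12, S100A4 at 557 ± 4.78, S100A16 at 332 ± 21.9, S100A13 at 114 ± 8.70, S100A3 at 38.2 ± 4.61, S100A2 at 12.99 ± 0.575 and S100P at 5.55 ± 0.432. Neighbours in these orders did not overlap between libraries, with the exception of S100A10 and S100A4 in PANC-1, which differed by less than their spread.

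The proportions of the members shifted. S100A6 was the most abundant member in every library, ranking 13 by TPM among all genes in both PANC-1 libraries and 23 and 21 in PZT-2. S100A16 ranked 790 and 803 in PANC-1 and 472 and 426 in PZT-2, while S100A4 went from ranks 132 and 137 to 250 and 247. The ratio of S100A16 to S100A4 in TPM was 0.182 and 0.181 in PANC-1 and 0.565 and 0.628 in PZT-2. S100A6 held 52.7% and 51.7% of the summed TPM of the 9 genes in PANC-1 and 47.7% and 48.3% in PZT-2, and S100A11 held 21.3% and 21.2% against 27.0% and 26.9%. The 9 genes together came to 10401 and 9553 TPM in PANC-1 and 7304 and 7554 in PZT-2, which is 1.04%, 0.979%, 0.777% and 0.801% of the listed TPM. These ratios and sums restate the changes of single genes and were not tested.

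S100A4, S100A13 and S100A16 were quantified as several RefSeq transcripts, and the other 6 genes as 1 each, 17 transcripts in all. Most counts of S100A4 came from NM_002961, with 88.1% ± 0.0317 of the gene in PANC-1 and 85.8% ± 0.0964 in PZT-2 (each SD, n = 2). Both transcripts were lower in PZT-2 libraries, NM_002961 with a log2 fold change of -1.04 (adjusted p = 0.0445 in edgeR over 30301 transcripts) and NM_019554 with -0.75 (adjusted p = 0.0955). NM_002961 was the only member transcript that edgeR called, where 0.149% of all transcripts tested were called. An unadjusted p under 0.05 in edgeR was reached by 7 of the 17, and by 5601 of all 30301 transcripts. For the other settings below, the share of all transcripts at an unadjusted p under 0.05 was not counted. DESeq2 called 6 of the 16 to which it gave an adjusted p, where it called 14.8% of all transcripts. These were both transcripts of S100A4, those of S100A6 and S100A10, and NM_080388 and NM_001317007 of S100A16. With at least 10 counts in all 4 libraries 5 were called by edgeR, where 5.87% of all transcripts were. With the replicate block, and whichever library was left out, edgeR called 0 member transcripts and likewise 0% of all transcripts tested, and the unadjusted p was under 0.05 for 6 to 8 member transcripts.

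None of the 4 transcripts of S100A16 was called by edgeR. NM_080388 begins upstream and had 1333 and 1347 normalized counts in PANC-1 against 2194 and 2381 in PZT-2, a difference of 0.77 on the log2 scale (adjusted p = 0.0602 in edgeR). NM_001317007 begins 3739 bases downstream in GENCODE 29 and had 343 and 302 against 530.4 and 579.7 (0.78, adjusted p = 0.0955). The PZT-2 libraries lay above the PANC-1 libraries for both. NM_001317008, which begins 3746 bases downstream, had 148 and 91.7 against 94.4 and 134 (-0.07, adjusted p = 0.972), and the noncoding NR_133645 had 7 counts in each PANC-1 library and 0 in each PZT-2 library, where a count of 0 allows up to 3. NM_080388 held 74.9% ± 3.08 of the gene in PANC-1 and 77.4% ± 0.636 in PZT-2 (each SD, n = 2), a shift within the spread of the PANC-1 pair.

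S100A13 had 5 transcripts and none of them was called by edgeR or DESeq2, where 0 and 1 of them had an unadjusted p under 0.05. NM_001024211 held 72.3% ± 8.75 of the gene in PANC-1 and 66.1% ± 6.71 in PZT-2 (each SD, n = 2), and had 521 and 381 normalized counts in PANC-1 against 325 and 309.6. NM_001024213 had 0 and 27 counts in PANC-1 and 5 and 33 in PZT-2, so it was low in replicate 1 and higher in replicate 2 of both lines. The values of single transcripts rest on how kallisto shared out reads among overlapping transcripts. Sums over a gene do not rest on the sharing among its own transcripts. Where exons of different genes overlap, as for S100A13 and S100A1, the sums could rest on sharing between genes, which was not tested.

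**Figure D3:**
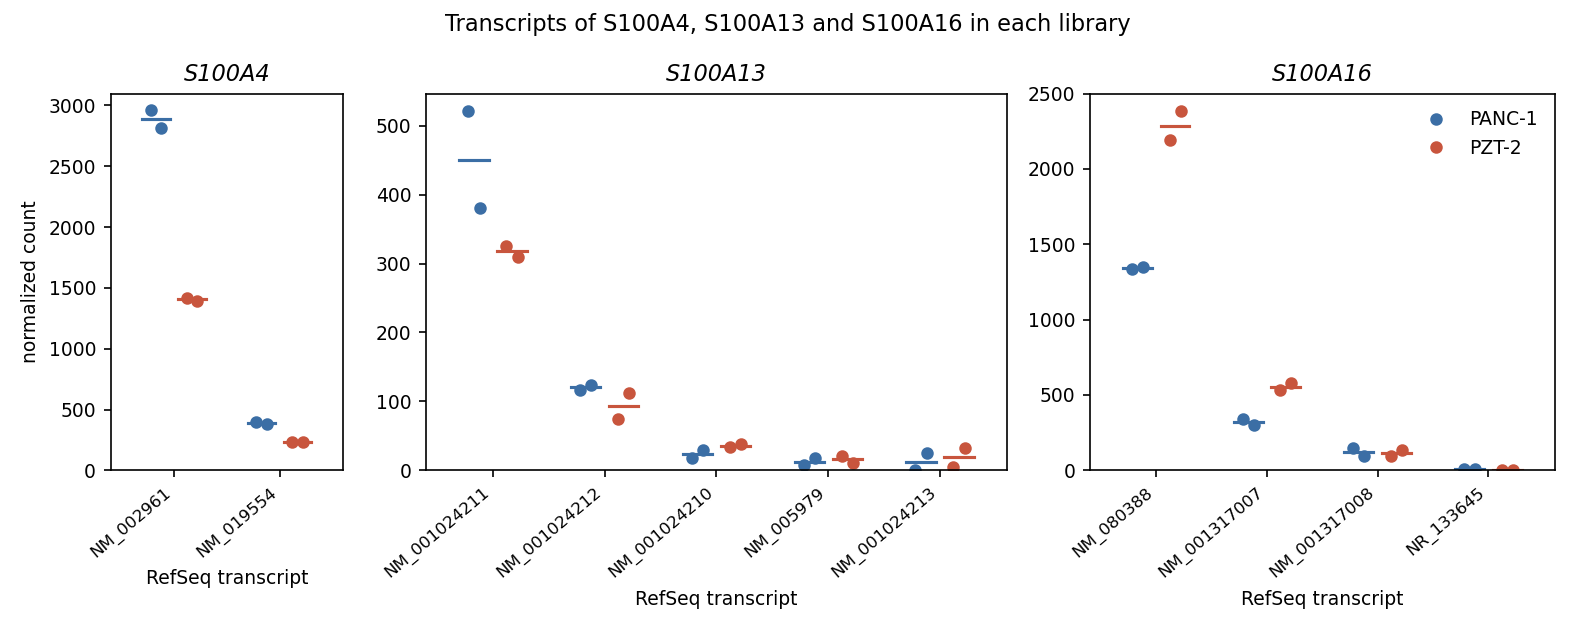
Normalized count of each RefSeq transcript of S100A4, S100A13 and S100A16, with PANC-1 in blue, PZT-2 in red, 1 point per library and a bar at the mean of the 2 libraries. NM_002961 of S100A4 lies lower and NM_080388 of S100A16 higher in PZT-2. Of the 5 transcripts of S100A13, NM_001024211 and NM_001024212 lie lower, NM_001024210 lies higher and the other two overlap.

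Of 11 other S100 genes, S100A1 and S100A5 had counts and the other 9 were not analysed here, among them S100A8 and S100A9, which form calprotectin. S100A1, a regulator of calcium handling in muscle, had 7 and 14 counts in PANC-1 and 18 and 26 in PZT-2. All 4 values were low and those of PZT-2 were the higher ones, but the difference missed the threshold (log2 fold change 1.07, SE 0.445, adjusted p = 0.124 in edgeR, 0.0494 to 0.408 over 12 alternatives). Its exons share the 235 bases with S100A13. S100A5 had 4 and 6 counts against 3 and 4 and was under the filter. Of 7 genes of the fused S100 type, which build the skin barrier, FLG, FLG2 and HRNR were tested. Of these, 0 were called or had an unadjusted p under 0.05 in edgeR or DESeq2, with log2 fold changes from -0.36 to 0.18. FLG2 had 5 to 9 counts per library and HRNR 5 to 7, so both could show only large changes. TCHH had 8 and 3 counts against 4 and 4 and was under the filter.

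The changes of the S100 genes were next set beside those of their surroundings on chromosome 1. Within 1 Mb of the outermost S100A genes lie 59 other tested genes, of which 6 were higher, 9 were lower and 44 were not called. That is 25.4%, near the 28.4% of all genes, and the median log2 fold change was -0.02. Among the 1525 tested genes of chromosome 1, 26.0% were called with a median of -0.01. Without PZT-2 replicate 1 the neighbours called were 4, and without PZT-2 replicate 2 they were 6, where 15.6% and 12.6% of all genes were called. Between the outermost S100A genes, 6 other genes were tested, FLG, FLG2 and HRNR among them. Of these 6, 0 were called or had an unadjusted p under 0.05 in edgeR. Counts were low in most, with 5 to 9 for FLG2, 5 to 7 for HRNR and 13 to 24 for FLG-AS1. LOC101928034 had 21 to 26, FLG 54 to 88 and CHTOP 1182 to 1420. Apart from CHTOP, these genes could show only large changes.

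None of the called neighbours changed by 1 or more on the log2 scale. The 5 neighbours with the highest counts changed little. TPM3, a tropomyosin, had 10946 and 10278 normalized counts in PANC-1 and 10169.9 and 10739 in PZT-2 (log2 fold change -0.02). ILF2, a subunit of a double-stranded RNA-binding complex, had 4769.9 and 4868 against 4256 and 4256 (-0.18, adjusted p = 0.0379 in edgeR). The PZT-2 libraries lay below those of PANC-1 for ILF2 and RPS27 and overlapped with them for TPM3, ADAR and PSMB4. Without PZT-2 replicate 1 or 2 ILF2 was no longer called (adjusted p = 0.199 and 0.210), and RPS27, a ribosomal protein, ADAR, an RNA-editing enzyme, and PSMB4, a proteasome subunit, had log2 fold changes of -0.10, -0.08 and -0.10 and did not pass. Without PANC-1 replicate 2 RPS27 was called lower (-0.17, adjusted p = 0.0341 in edgeR).

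**Figure D4:**
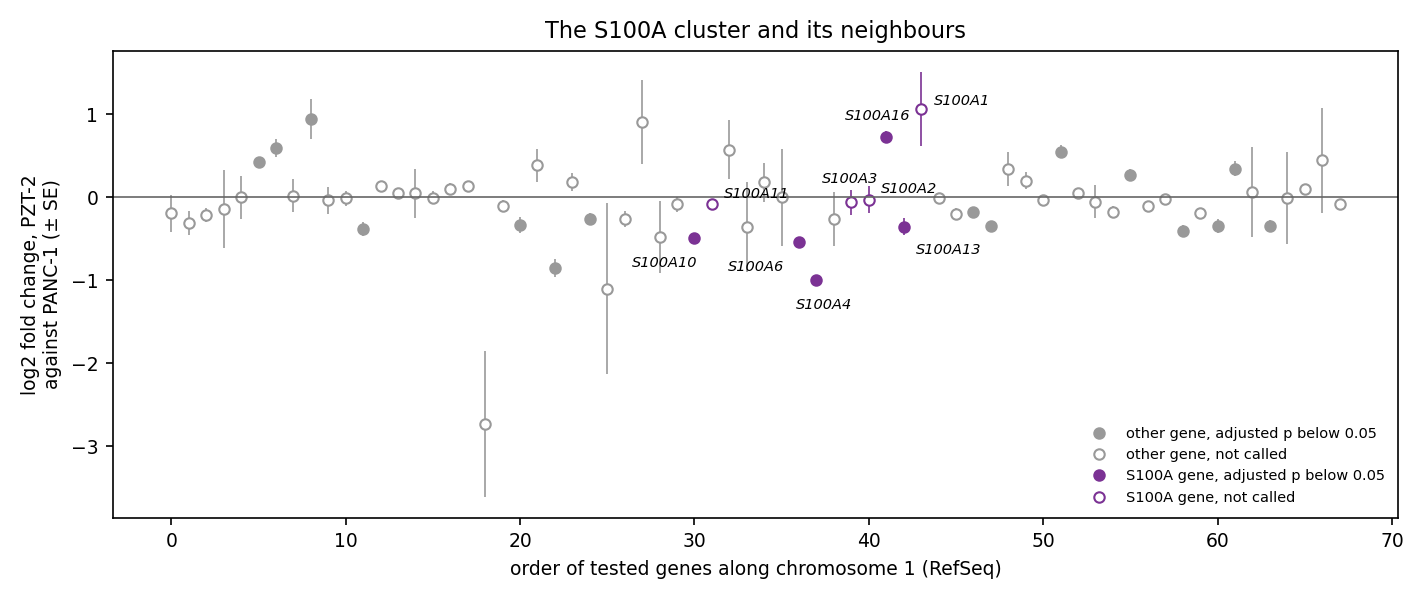
Log2 fold change of PZT-2 against PANC-1, with bars of 1 standard error, for the tested genes of the S100A cluster (purple) and of 1 Mb on either side (grey), in their order along chromosome 1, with filled points for an adjusted p under 0.05. S100A4 at -0.99 and S100A16 at 0.73 lie near each other in the order, with S100A3, S100A2 and 1 grey point, at -0.26, between them.

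Annexins bind membrane phospholipids with calcium, and several do so together with an S100 dimer. Of 13 annexin genes 9 were tested, of which ANXA4 and ANXA6 were higher, ANXA2 was lower and 6 were not called, with a median log2 fold change of 0.04. The 3 called are 33.3% of the 9, near the 28.4% of all genes. ANXA2, the partner of S100A10, had 35959 and 34508 normalized counts in PANC-1 and 31628 and 31990.3 in PZT-2. The pairs did not overlap, and the log2 fold change was -0.15 (SE 0.0398, adjusted p = 0.0351 in edgeR), beside -0.49 for S100A10. The call of ANXA2 was lost without PZT-2 replicate 1 or 2 (adjusted p = 0.223 and 0.192), with limma-trend on TPM, with the replicate block and with its most abundant transcript alone. The range of its adjusted p over 13 alternatives was 0.00614 to 0.223.

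ANXA6 had 1458 and 1408 normalized counts in PANC-1 and 1805 and 1773 in PZT-2 (log2 fold change 0.32, SE 0.0587, adjusted p = 0.00927 in edgeR). It was not called when PZT-2 replicate 1 or 2 was left out (adjusted p = 0.0753 and 0.0702). ANXA4, named after its value was seen, rose by 0.21 on the log2 scale (adjusted p = 0.0436 in edgeR), a call that 8 of 13 alternatives did not make, with adjusted p up to 0.256. ANXA1, which S100A11 binds, had 799 and 788 against 801 and 780.3 (log2 fold change -0.00, SE 0.0665). ANXA5, ANXA7 and ANXA11, the other abundant annexins, had log2 fold changes of 0.08, 0.04 and -0.06 and did not pass the test. When PZT-2 replicate 1 or 2 was left out, edgeR called 0 annexins, while 2 and 1 of them had an unadjusted p under 0.05 and the share called of all genes was 15.6% and 12.6%.

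Receptors and intracellular targets of S100 proteins moved in both directions. Of 42 genes on this list 31 were tested, of which 10 were higher, 9 were lower and 12 were not called in PZT-2. That is 61.3% called, where 28.4% of all genes were, with a median log2 fold change of -0.16. With at least 10 counts in all 4 libraries, 19 of the list were called, where 35.9% of all genes were. The list was chosen with earlier results of these data known. Without PZT-2 replicate 1, and likewise without PZT-2 replicate 2, 8 of them were called, where 15.6% and 12.6% of all genes were.

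Among 5 tested surface receptors of S100 proteins, 2 were higher and 2 were lower. MCAM, an adhesion molecule of the immunoglobulin family, rose from 794 and 749 normalized counts to 1979 and 1877 (log2 fold change 1.32, SE 0.0672, adjusted p = 1.82e-04). ALCAM, another such adhesion molecule, fell from 555 and 639 to 208 and 172 (log2 fold change -1.65, SE 0.128, adjusted p = 5.21e-04). These changes were many times the spread between replicates and kept their call in all 13 alternatives of edgeR, DESeq2 and limma. NPTN, a synaptic adhesion protein, rose by 0.57 on the log2 scale, a call kept in 13 of 13 alternatives. BSG, the inducer of matrix metalloproteinases, fell by 0.21 on the log2 scale (adjusted p = 0.0356), a call that BSG lost without PZT-2 replicate 1 or 2 (adjusted p = 0.144 and 0.207). AGER, the gene of RAGE, was scarcely expressed, with 29.3 and 15.4 normalized counts in PANC-1 and 18.1 and 20.8 in PZT-2 (log2 fold change -0.18, SE 0.426).

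Of 5 plasminogen genes, with which S100A10 acts at the cell surface, 3 were tested, and PLAU and PLAUR were higher. PLG, the gene of plasminogen, and PLAT were not analysed here. PLAU, the urokinase that activates plasminogen, rose from 14318 and 13629.5 normalized counts to 24717 and 25362 (log2 fold change 0.84, SE 0.0453, adjusted p = 2.06e-04). PLAUR, its receptor, rose from 101 and 96.7 to 233 and 246 (log2 fold change 1.27, SE 0.123, adjusted p = 0.00107). Both changes went in the direction opposite to that of S100A10.

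Of 3 tested targets and cargo proteins of S100A10, KCNK3 fell from 106 and 93.1 normalized counts to 46.3 and 49.4 (log2 fold change -1.05, SE 0.188, adjusted p = 0.00852). KCNK3 is a potassium channel that S100A10 is known to hold or carry in the cell, and it was just outside the threshold without PZT-2 replicate 1 or 2 (adjusted p = 0.0526 and 0.0518). ASIC1, an acid-sensing ion channel, rose by 0.62 on the log2 scale (adjusted p = 0.0453 in edgeR), but 7 of 13 alternatives did not call it, those without PANC-1 replicate 2 and without PZT-2 replicate 1 among them (adjusted p = 0.0820 and 0.234). AHNAK, a giant scaffold protein that binds the complex of S100A10 and annexin A2, had 39291 and 41510.2 against 38374 and 30685 (log2 fold change -0.23, adjusted p = 0.138). For AHNAK PZT-2 replicate 2 stood apart from the other 3 libraries, and leaving out PZT-2 replicate 1 gave an adjusted p of 0.0201 (0.0201 to 0.909 over 13 alternatives).

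The cytoskeletal targets were split in the same way, with 2 of 6 higher, 3 lower and 1 not called. Of the 3 heavy chains of nonmuscle myosin II, MYH9, the target of S100A4, had 27034 and 25991 normalized counts in PANC-1 and 22924 and 22392 in PZT-2. The pairs were well apart but the difference was small, with a log2 fold change of -0.23 (SE 0.0420, adjusted p = 0.00957), and it was not called without PZT-2 replicate 1 or 2 (adjusted p = 0.0695 and 0.109). MYH10 fell by 0.87 and MYH14 rose by 0.74 on the log2 scale, both called in 13 of 13 alternatives. EZR, the gene of ezrin, fell by 0.23, PPFIBP1, which S100A4 binds, rose by 0.32, and both lost their call when either PZT-2 library was left out (adjusted p from 0.0566 to 0.175). IQGAP1 was not called (log2 fold change -0.18, adjusted p = 0.121 in edgeR), and was called lower without PANC-1 replicate 1 (0.00742). Among 7 tested chaperone and ubiquitin adaptor genes, CACYBP, FKBP4 and STIP1 were higher by 0.19 to 0.30 and PPP5C fell by 0.29. SUGT1, FKBP5 and S100PBP were not called. Of 13 alternatives, the call was lost in 8 for STIP1, 5 for CACYBP, 4 for FKBP4 and 2 for PPP5C. MDM2, a ubiquitin ligase, fell by 0.36 on the log2 scale. Without PZT-2 replicate 1 or without PZT-2 replicate 2 none of the 5 called genes in these groups kept its call (adjusted p from 0.0557 to 0.257). Of the 4 tested targets of S100B, 0 were called or had an unadjusted p under 0.05 in edgeR and DESeq2, although 2 were called without PANC-1 replicate 1. SYT1, listed as an export partner of S100A13, was not called (log2 fold change 0.18, adjusted p = 0.540 in edgeR).

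**Figure D5:**
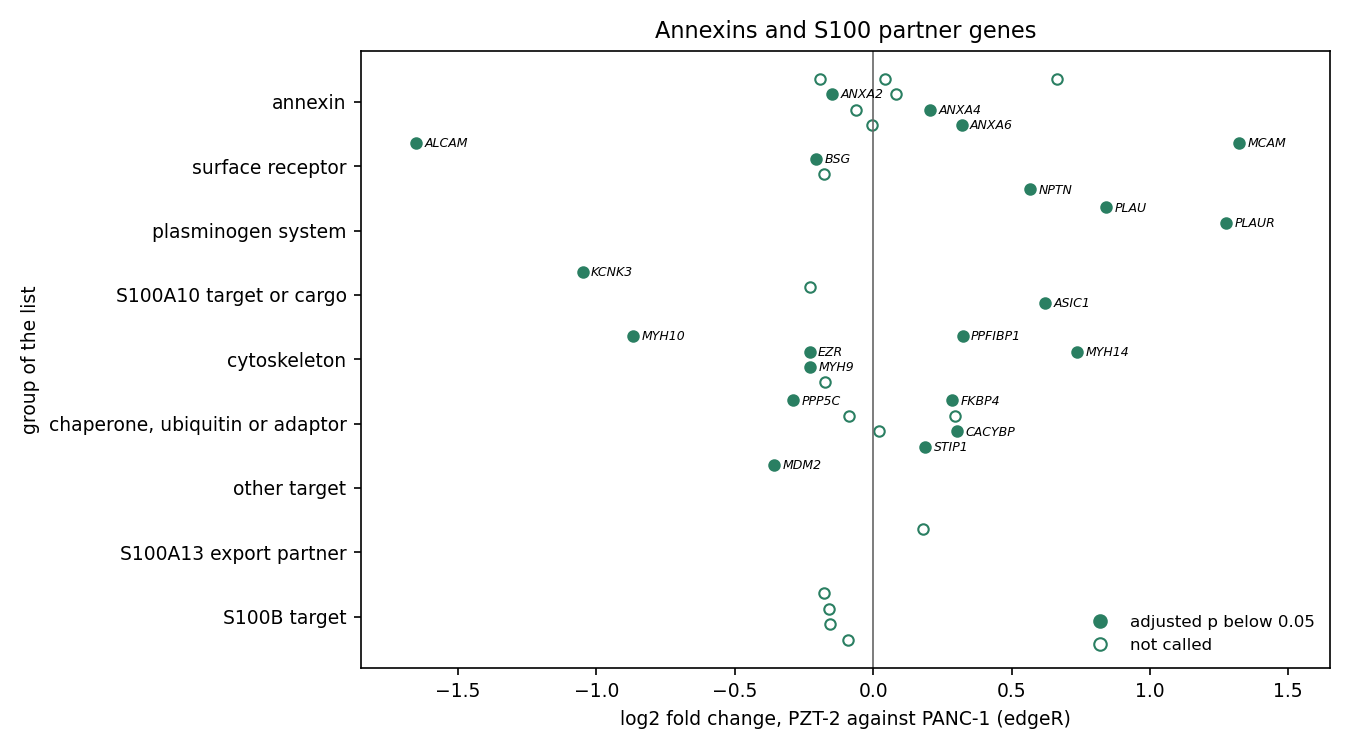
Log2 fold change of PZT-2 against PANC-1 for tested annexin genes and genes of S100 receptors and targets, by group, with filled and named points for an adjusted p under 0.05. Points lie on both sides of 0 in most groups, from ALCAM at -1.65 to MCAM at 1.32.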

How the data were processed

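RNA-seq was analysed in 2 libraries of PANC-1 and 2 of PZT-2. The authors trimmed stranded paired reads with Trim Galore 0.4.1, estimated RefSeq transcripts with kallisto 0.43.0 and exported them with sleuth 0.29.0, per the labels and the methods. The build hg19 is named in the submitters' processing notes without a role. The deposited estimated counts carry 1 factor per library (0.935 to 1.16), which was undone. The deposited TPM signal is rescaled per library too, with sums of 940619 to 1000100. The authors' p-values and effects were not used. Counts were rounded, summed by gene (103 transcripts with 0.0466% of counts had no gene) and tested with edgeR 4.0.16 in R 4.3.3 (at least 5 counts in 2 or more libraries, TMM, quasi-likelihood, Benjamini-Hochberg, threshold 0.05). The standard error is the log2 fold change over the root of F. The main edgeR test was checked on simulated counts of genes and transcripts that had passed the filter. DESeq2 and limma-trend were not checked in this way. Members and lists were chosen with earlier results of these data known. Named were all members, other S100 genes with counts, list genes called with a log2 change of at least 1, the 5 most abundant of each list, and H2AFZ and H2AFV, and further list genes (AGER, ANXA1 and TCHH among them) were added once values were known. Of the receptor and target list, 2 genes enter the counts but are not reported here. The alternatives run were RLE size factors, DESeq2 1.42.0, no or a stricter filter (10 counts in all 4 libraries), limma-trend (limma 3.58.1) on log2(TPM + 1) and log2(TPM + 0.1), the replicate block, each library left out in turn, the most abundant transcript and the counts with the factor kept. Promoters, gene order and pseudogenes come from RefSeq on GRCh38.p14, exon overlaps from GENCODE 29.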

Additional observations from a re-analysis of the deposited data

How the results depend on the processing

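S100A4, S100A6, S100A10 and S100A16 kept their direction and call in all 13 alternatives, and 4 to 6 members were called. S100A13 missed the threshold with DESeq2 (-0.36), the replicate block (-0.35), its most abundant transcript (-0.50) and the deposited factor kept (-0.36), and ranged from -0.47 to -0.25 with single libraries left out. The same ranges were -0.10 to 0.0437 for S100A2, -0.18 to 0.0779 for S100A3, -0.17 to -0.00394 for S100A11 and -0.82 to 1.12 for S100P. S100P was positive with the TPM scale (0.0892 for a pseudocount of 1 and 0.15 for 0.1) and with the replicate block (0.0624). Among genes that were not called, ADAR was at 0.59 with its most abundant transcript, ANXA7 went from -0.0248 to 0.11 and TPM3 from -0.0739 to 0.0196 with single libraries left out.

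Of the other S100 genes, 1 was called with limma-trend on log2(TPM + 1), namely S100A1. The most abundant transcript alone gave 11 partner genes, 0 annexins, 4 neighbours and 1 targeted gene, where 14.1% of all genes were called. Of the annexins, 1 was called with limma-trend on log2(TPM + 1), 1 on log2(TPM + 0.1) and 1 with the replicate block. In these settings 25.1%, 24.5% and 24.5% of all genes were called. With single libraries left out, 8 to 21 partner genes, 0 to 3 annexins, 4 to 16 neighbours and 1 to 2 targeted genes were called. Of the member transcripts, 6 were called with DESeq2, 5 with at least 10 counts in all 4 libraries (5.87% of all transcripts), 0 with the replicate block and 0 whichever library was left out (edgeR, 6 and 6 to 8 at an unadjusted p under 0.05), where 0% of all transcripts were called. Over all genes the count of calls was 2124 with the most abundant transcript, and 2313 and 1867 without PZT-2 replicates 1 and 2. With 1 library left out, the lone library was assumed to vary like the other pair. The numbers of the replicates do not show that libraries belong together (correlation of deviations -0.0237 over 15100 genes), the block gave 3698 genes against 4290, and it took 1 call from the members, that of S100A13. The cause of these shifts was not tested. Counts of 30 or fewer, as in S100P, S100A1, S100A5, FLG2 and HRNR, limit what these libraries can show.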
